A study of Cloeon viridulum with 15 samples.

Results

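Mature larvae and imagoes of the mayfly Cloeon viridulum were compared by RNA sequencing of whole bodies, from the last aquatic stage to the reproductive stage, passing over the subimago that stands between them. The comparison was described over unigenes, sequences assembled without a genome, whose best protein hit came from an animal. These were 17344 of the 91881 unigenes in the table, 15002 with an arthropod hit and 2342 with another animal hit, and 16 of the animal hits were to mayfly proteins. Of the 17344, 13442 passed a filter on low read counts and were tested. Each stage had 3 libraries, called biological replicates in the labels, and each library pooled 3 males and 3 females. The animals were field-collected young larvae that were raised indoors to the stage sampled, at 22 °C and 60% humidity under 16 h light and 8 h dark. The labels name no allele or treatment for any group. The series holds 15 libraries in all, with 3 each of young larvae (10 animals a library), subimagoes (3 males and 3 females a library) and a mixture of stages (11 animals a library), which entered the fit.

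Mayflies are the insects that moult once more after they have gained working wings. The larva feeds in water and breathes through gills, the winged subimago leaves the water, and its moult gives the imago, which mates, lays eggs and dies. Neither winged stage feeds. Moults are driven by pulses of the steroid 20-hydroxyecdysone, whose effect on metamorphosis is held back by juvenile hormone. The new cuticle is laid down under the old one before each moult.

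**Figure D1:**
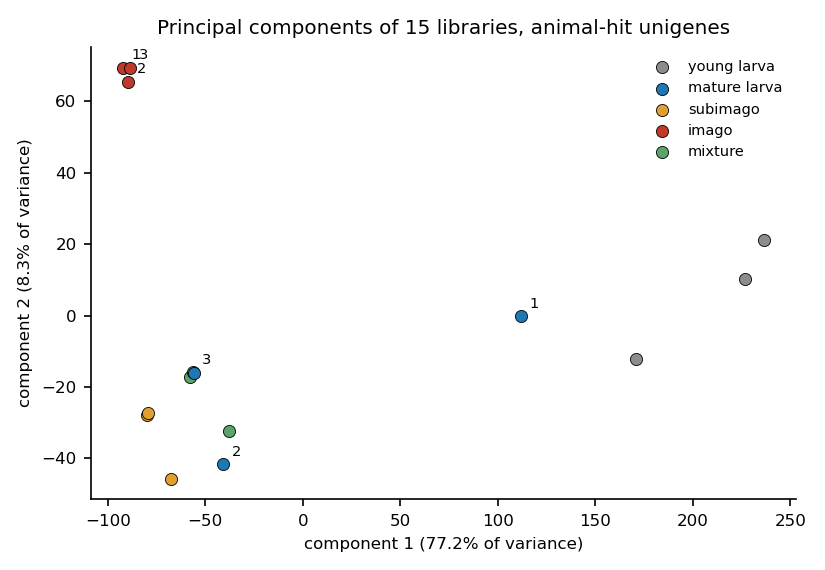
Libraries on the first and second principal components of log2 levels over the unigenes tested, 1 point a library, coloured by group, with the mature larva and imago replicates numbered; the axes carry the share of the variance, 77.2% and 8.30%. Mature larva replicate 1 lies at 111.7 on the first component, between the young larvae at 170.7 to 236.2 and the other mature larva libraries at -40.8 and -55.9.

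The mature larva libraries held 74837923, 46976259 and 49983472 reads and the imago libraries 43174803, 46642654 and 42017488. Mature larva replicate 1 was the deepest library of the series, whose other libraries held 36550269 to 49983472 reads. Levels below are CPM, read counts relative to library size, after TMM scaling, which corrects library totals for differences in composition. Mature larva replicate 1 stood apart, as the plot of components shows. Its log2 levels correlated at 0.828 and 0.818 with those of replicates 2 and 3, which correlated at 0.972 with each other, while the imago libraries correlated at 0.993 to 0.994. Reads on unigenes with a protist or fungal hit made up 2.45% of mature larva replicate 1, 0.193% and 0.275% of the other mature larva libraries, 0.369% to 0.488% of the imago libraries and 1.74% to 8.00% of the young larva libraries. Counts of calls over all animal-hit unigenes and over each list are therefore given with and without this library, and the part that its other differences play in a result was not tested. The labels give whole bodies, and markers of each of the 9 tissues looked up (muscle, gut, nervous system, eye, germline and ovary, testis, epidermis, fat body and blood cells) were read in every library of both stages.

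Between the stages, 4019 of 13442 animal-hit unigenes were higher in imagoes (29.9%) and 3758 were lower (28.0%), by edgeR's quasi-likelihood test at a Benjamini-Hochberg adjusted p under 0.05. Without mature larva replicate 1 the counts were 3152 higher (23.4%) and 2426 lower (18.0%). Of these, 3048 rises and 2297 falls were called both ways, and none of the unigenes called both ways changed sign. Rises were mostly small and falls often large, since 36 called rises but 1798 called falls exceeded 3 on the log2 scale (71 and 652 without that library). The median log2 change was -0.01 over all animal-hit unigenes tested (0.08 without replicate 1). The 11941 tested unigenes with an arthropod hit had 3799 rises and 3109 falls (2981 and 2286 without replicate 1). The 1501 with another animal hit had 220 rises and 649 falls, which became 171 and 140 without replicate 1. Among called rises, the subimago mean lay between the stages for 3292, above both for 343 and below both for 384 (2601, 144 and 407 without replicate 1). Among called falls it lay between for 2555, above both for 487 and below both for 716 (1675, 443 and 308). Scaling by library totals alone moved the median over the tested unigenes up by 0.43 on the log2 scale, and 67.37% of the calls were then rises, against 51.68%.

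**Figure D2:**
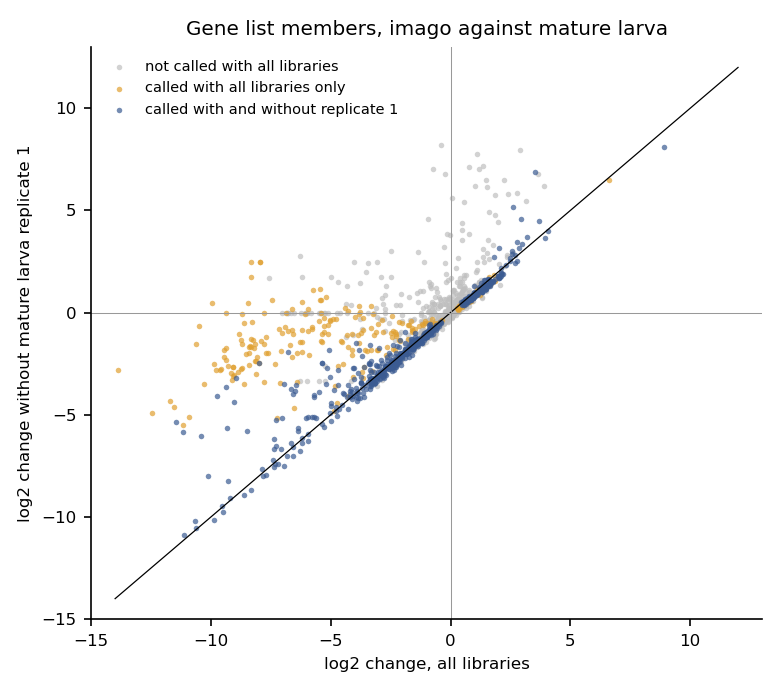
Log2 change from mature larva to imago for members of the gene lists, with all libraries (horizontal axis) and without mature larva replicate 1 (vertical axis), coloured by whether the unigene was called in both fits, with all libraries only, or not with all libraries; the black line marks equal change. Points far below 0 on the horizontal axis but near 0 on the vertical axis are falls that rest on replicate 1.

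Many of the falls rested on 1 library. In 1115 of the 3758 lower calls (29.7%), mature larva replicate 1 was at least 10 times above both other mature larva libraries, a ratio chosen after the values were seen. Of these, 75 were called lower without it, against 2222 of the remaining 2643. Because the 1115 were picked by the height of replicate 1, much of this difference follows from the choice. The young larva mean was above mature larva replicate 1 in 1112 of the 1115. The plot of changes with and without replicate 1 shows this group as points that move towards 0. Chymotrypsin BI (13_Contig_12396), a digestive protease chosen after values were seen, shows the pattern, with 1031, 0.167 and 0.142 CPM in the mature larva libraries and 0.0383, 0.0212 and 0 CPM in the imago libraries. It had 3 imago reads against 83048 larval reads, a ratio of 27340 with a 95% interval of 9355 to 132600 for counting error only. Its log2 change was -13.90 ± 3.41, adjusted p = 0.00797, and -2.80, adjusted p = 0.196 without replicate 1.

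**Figure D3:**
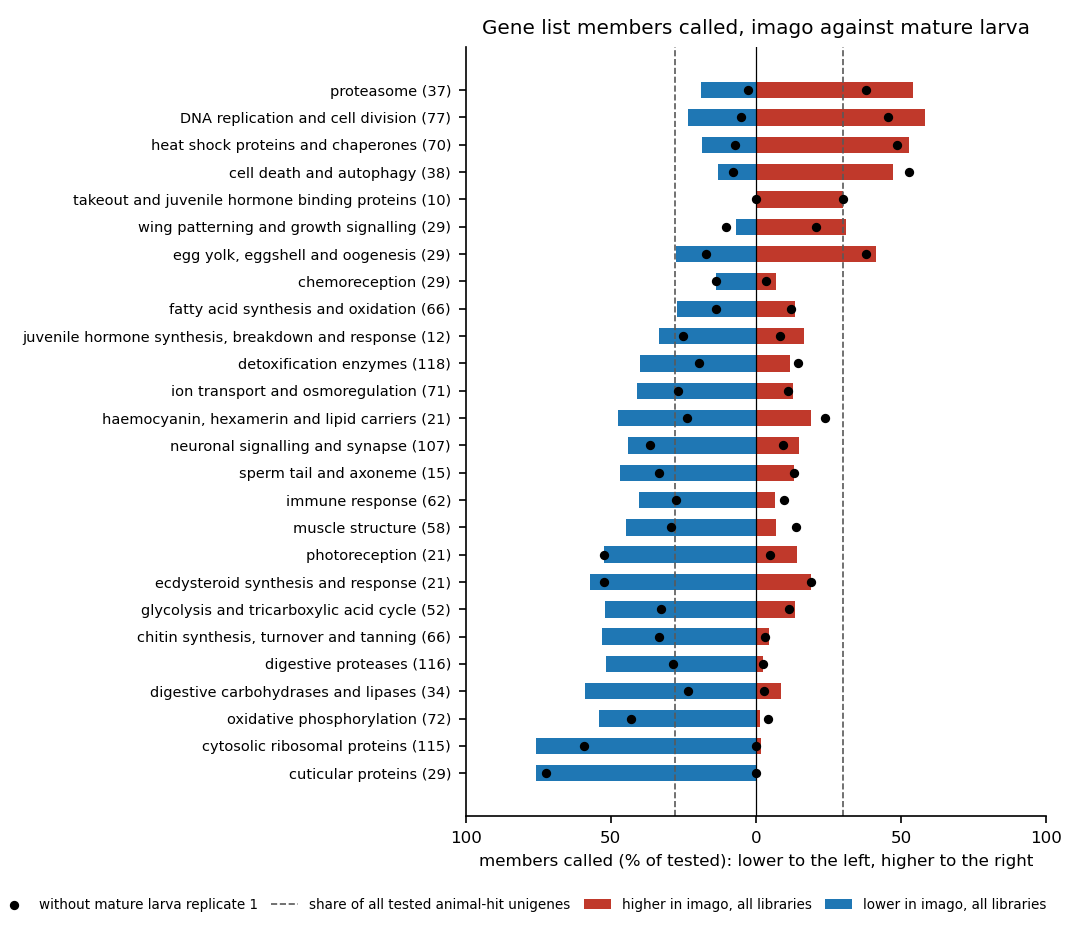
Share of the tested members of each gene list that were lower (left) or higher (right) in imagoes, for the 26 lists with at least 5 members tested, with black points for the share without mature larva replicate 1 and dashed lines at the shares over all animal-hit unigenes, 28.0% and 29.9%. Cuticular and ribosomal proteins stand at the lower end, and DNA replication, chaperones, proteasome and cell death have more rises than falls.

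Genes of the cuticle fell towards the imago. Cuticular proteins, which with chitin make up the exoskeleton, had 22 falls and 0 rises among 29 members tested of 40 annotated (21 falls and 0 rises without replicate 1). The falls were 75.9% of the members tested, against 28.0% over all animal-hit unigenes. Epidermis markers, 32 of 43 tested and in part the same unigenes, summed to 1017, 825 and 1135 CPM in mature larvae and 115 to 159 CPM in imagoes. The list's median log2 change was -5.04 (-3.42 without replicate 1). Here and for every list below, fewer cells of a type and less RNA per cell cannot be told apart in whole bodies. The summed level of the list was 821, 623 and 1063 CPM in mature larvae, 3483 to 6815 CPM in subimagoes, and 46.9, 59.7 and 53.0 CPM in imagoes. The subimago was therefore the highest of the 3 stages for cuticular proteins as a sum, and the imago the lowest.

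**Figure D4:**
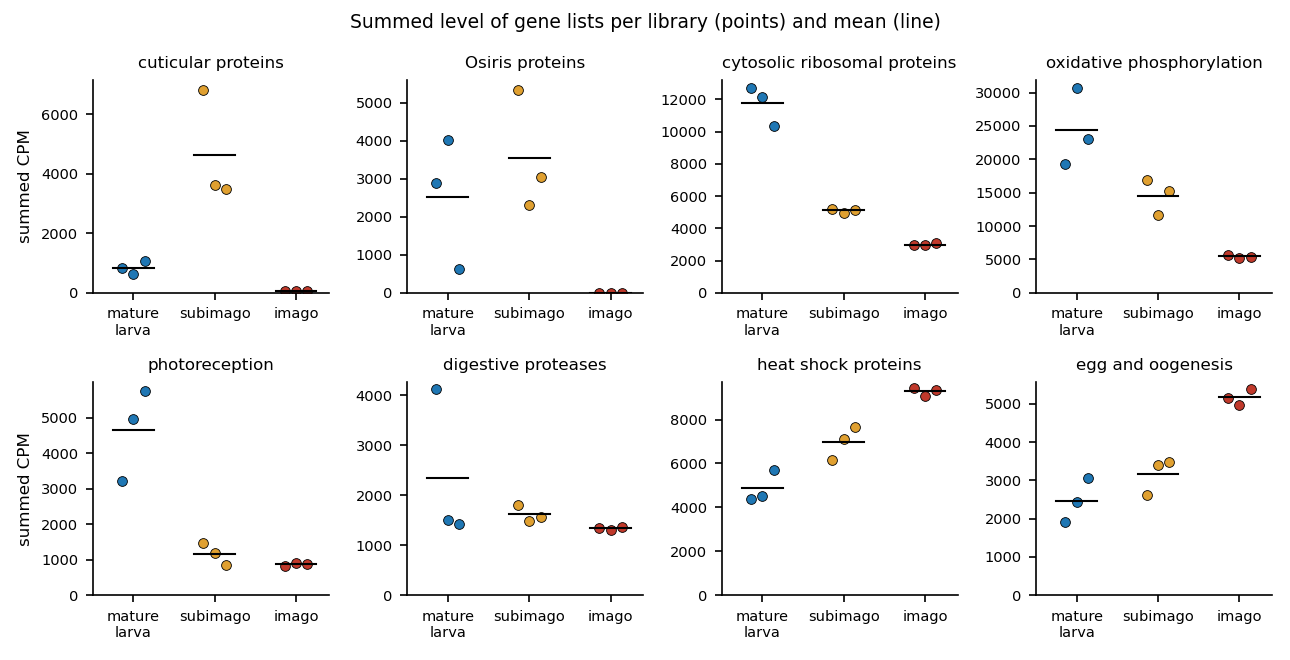
Summed level of 8 gene lists in each mature larva, subimago and imago library, in CPM, 1 point a library with a line at the stage mean. Cuticular proteins run from 623 to 1063 CPM in mature larvae to 46.9 to 59.7 CPM in imagoes, while the egg and oogenesis list runs from 1906 to 3065 CPM to 4972 to 5392 CPM.

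Single cuticular unigenes differed in where they peaked. A unigene annotated as an insect cuticle protein (13_Contig_5968) had 105, 16.1 and 87.5 CPM in the mature larva libraries and 0.478, 0.636 and 0.427 CPM in the imago libraries. This was a log2 change of -7.08 ± 0.79, adjusted p = 0.000134 (± SE here and throughout, n = 3 libraries per stage). Every imago library was below every mature larva library, and the change was -6.68, adjusted p = 0.000127 without replicate 1. Cuticle protein 19 (13_Contig_301) fell from 2604 reads over the mature larvae to 1 read over the imagoes, a ratio of 2572 with a 95% interval of 461.2 to 101600 that covers counting error only. Its levels were 24.1, 20.4 and 1.21 CPM in mature larvae and 58.6 CPM on average in subimagoes. The putative cuticle protein 13_Contig_9820 had the most negative value among falls kept by the naming rule, with 87.8, 105 and 1.14 CPM in the mature larva libraries and 0.0765, 0 and 0 CPM in the imago libraries. Mature larva replicate 3 was far below the other larval libraries but above all imagoes, and the log2 change was -11.13 ± 2.00, adjusted p = 0.00149. The most abundant member in CPM (First_Contig519) had 74.8, 35.5 and 651 CPM in the mature larva libraries and 1.30, 4.33 and 4.04 CPM in the imago libraries. The imagoes formed the lower range (log2 change -6.30 ± 1.22, adjusted p = 0.00224). Its highest library was mature larva replicate 3. The adult-specific cuticular protein ACP-20 (13_Contig_25170, chosen after values were seen), fell. Its levels were 11.5, 62.0 and 14.5 CPM in the mature larva libraries and 0.306, 0.318 and 0.291 CPM in the imago libraries, with a subimago mean of 969.8 CPM, and the log2 change was -6.57 ± 0.89, adjusted p = 0.00036.

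Many chitin genes and both Osiris genes also fell. The list of chitin synthesis, turnover and tanning had 35 falls and 3 rises among 66 tested of 93 annotated (22 and 2 without replicate 1). In 9 of the falls replicate 1 was at least 10 times above the others. That made 53.0% of those tested lower (33.3% without replicate 1), against 28.0% (18.0%) over all animal-hit unigenes. Chitin synthase (13_Contig_2861), the enzyme that builds the polymer, had 44.7, 55.4 and 53.1 CPM in the mature larva libraries and 4.15, 6.49 and 4.68 CPM in the imago libraries, and a subimago mean of 119 CPM. Its libraries within a stage were close together, the stages did not overlap, and the log2 change was -3.32 ± 0.24, adjusted p = 6.01e-06. The member highest in CPM, a chitinase (13_Contig_914), which degrades chitin, had 583, 452 and 547 CPM in the mature larva libraries and 289, 307 and 219 CPM in the imago libraries. The stages were not called different (log2 change -0.96 ± 0.67, adjusted p = 0.247), although no imago library reached the larval ones. Its subimago mean was 27.3 CPM, below every library of both stages. A laccase (13_Contig_13156), from the family of oxidases that includes the enzymes tanning insect cuticle, was the smallest-p rise, with 4.39, 7.00 and 7.23 CPM in the mature larva libraries and 23.1, 32.3 and 20.6 CPM in the imago libraries. The imago values were all higher than the larval ones, with a log2 change of 2.03 ± 0.52, adjusted p = 0.00984. Osiris proteins are an insect family that in Drosophila is active in epithelia secreting cuticle. Both members fell. Osiris 7 (13_Contig_655) had 2885, 4020 and 617 CPM in the mature larva libraries and 2.10, 1.78 and 0.932 CPM in the imago libraries. Mature larvae were higher in every library (log2 change -10.61 ± 1.26, adjusted p = 0.000196). Its subimago mean was 3552 CPM, within the range of the larval libraries, so its low level belonged to the imago among these 3 stages.

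**Figure D5:**
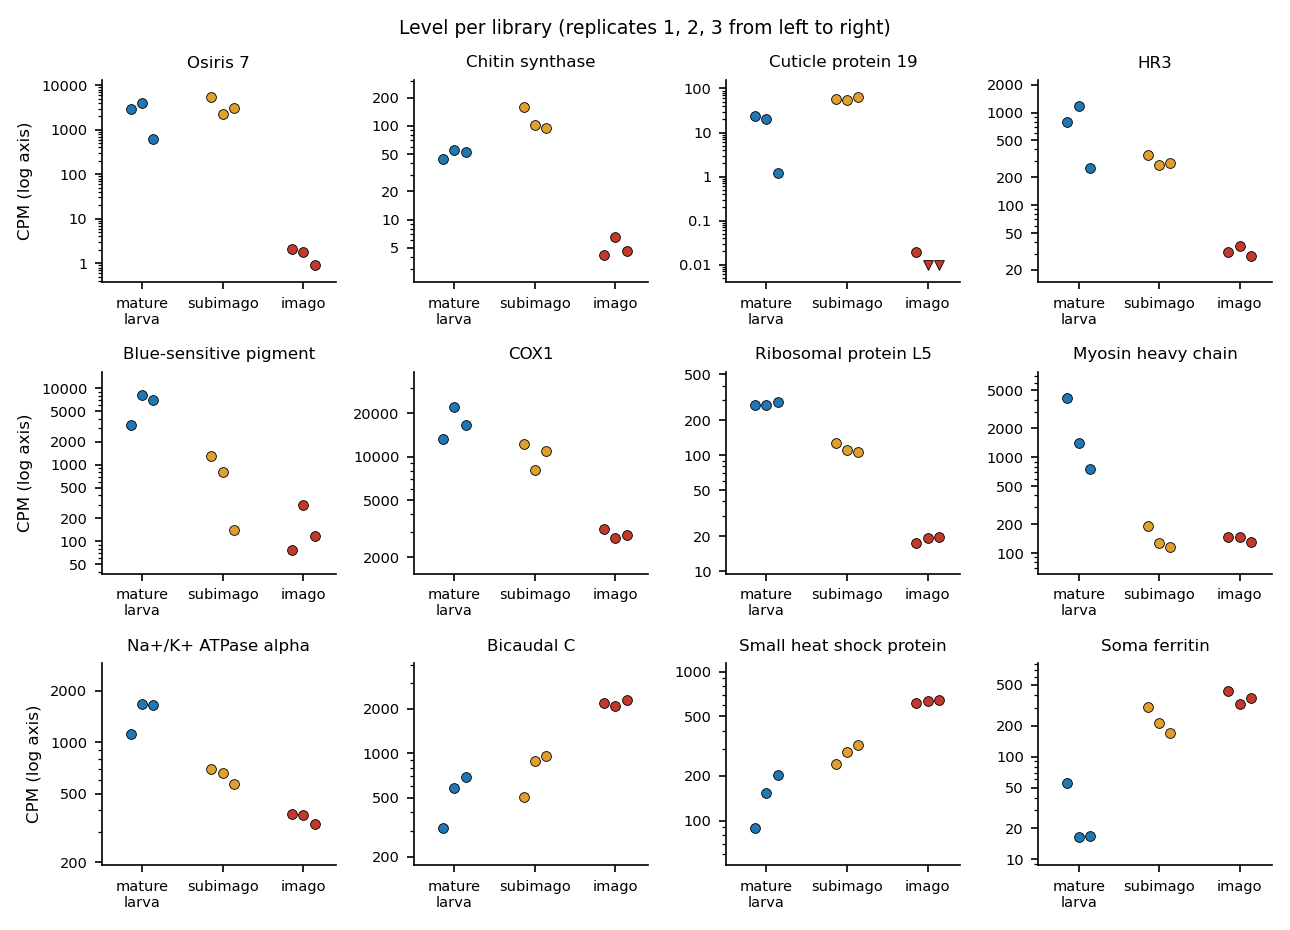
Levels of 12 unigenes in each mature larva, subimago and imago library, in CPM on log axes, 1 point a library; triangles mark libraries without a read, drawn at 0.01 CPM. Osiris 7 stays high in subimagoes and is at most 2.10 CPM in imagoes, while bicaudal C rises from 310.5 to 693.8 CPM in mature larvae to 2099 to 2316 CPM in imagoes.

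Ecdysteroid genes, which make the moulting hormone or respond to it, had 12 falls and 4 rises among 21 tested of 27 annotated (11 and 4 without replicate 1). Lower calls were 57.1% of those tested (52.4% without replicate 1), against 28.0% (18.0%) over all animal-hit unigenes. With library totals alone as scaling, 7 of the 21 were called lower, against 2461 of 13442 over all animal-hit unigenes. The most abundant was the nuclear receptor HR3 (13_Contig_1820), which in Drosophila is induced by the hormone pulse, with 799, 1167 and 254 CPM in the mature larva libraries and 31.2, 36.4 and 28.5 CPM in the imago libraries. Without overlap, imagoes were lower (log2 change -4.53 ± 0.60, adjusted p = 0.000337). Unigenes of Broad, a transcription factor that in insects with a pupa specifies the pupal stage, moved in both directions. The unigene annotated as Broad isoform 6 (13_Contig_1375) had 139, 268 and 300.3 CPM in the mature larva libraries and 35.1, 32.5 and 32.7 CPM in the imago libraries. All imago libraries lay below the larval ones (log2 change -2.82 ± 0.33, adjusted p = 0.000156). Another, annotated as isoforms 1 to 5 (13_Contig_5238), had 110.0, 113 and 141 CPM in the mature larva libraries and 192, 196 and 197 CPM in the imago libraries. Imagoes were higher throughout (log2 change 0.69 ± 0.14, adjusted p = 0.00254). Several unigenes may be pieces or near copies of 1 gene, and the sharing of reads among them is unknown, which leaves the value of any single family member uncertain. Of members chosen after values were seen, FTZ-F1 (13_Contig_7794), a receptor that in Drosophila acts as the hormone declines, had 72.7, 54.6 and 705 CPM in the mature larva libraries and 67.7, 65.1 and 66.7 CPM in the imago libraries. Its ranges overlapped, mature larva replicate 3 was far above every other library, and the log2 change was -2.06 ± 0.77, adjusted p = 0.0467 (0.06 without that library). It was no longer called without mature larva replicate 3 or imago replicate 1, 2 or 3 (adjusted p = 0.109 to 0.877). Ecdysone 20-monooxygenase (13_Contig_3366), which converts ecdysone to the active hormone, had 63.5, 69.4 and 116 CPM in the mature larva libraries and 160.0, 150.1 and 169 CPM in the imago libraries. No larval library reached the lowest imago one, and the log2 change was 0.94 ± 0.28, adjusted p = 0.019. The threshold was missed without mature larva replicate 2 or imago replicate 1 or 3 (adjusted p = 0.052 to 0.0579).

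Of juvenile hormone genes, 4 fell and 2 rose among 12 tested of 16 annotated (3 and 1 without replicate 1). As shares, 33.3% fell and 16.7% rose, against 28.0% and 29.9% over all animal-hit unigenes. Juvenile hormone esterase (13_Contig_20943), which breaks the hormone down, had 5.60, 9.80 and 4.28 CPM in the mature larva libraries and 0.957, 0.933 and 0.738 CPM in the imago libraries. The stages did not overlap, with imagoes lower by a log2 change of -2.90 ± 0.43, adjusted p = 0.000527. Krüppel homolog 1 (13_Contig_11936, chosen after values were seen), which relays the hormone's block on metamorphosis in other insects, had 60.2, 39.7 and 93.6 CPM in the mature larva libraries and 7.38, 17.2 and 14.5 CPM in the imago libraries. Every imago value was lower than any larval value, with a log2 change of -2.31 ± 0.42, adjusted p = 0.00155. The most abundant member was the receptor Methoprene-tolerant (13_Contig_51), with 196, 267 and 283 CPM in the mature larva libraries and 323, 347 and 363 CPM in the imago libraries. All imago libraries were above the larval ones, by 0.47 ± 0.16, adjusted p = 0.0322. The test no longer passed without mature larva replicate 1 or imago replicate 1, 2 or 3 (adjusted p = 0.0578 to 0.154). Farnesoic acid O-methyltransferase (13_Contig_3744), named for a step in hormone synthesis, had 66.0, 60.6 and 56.4 CPM in the mature larva libraries and 91.9, 79.6 and 88.6 CPM in the imago libraries. It rose without overlap between stages (log2 change 0.51 ± 0.12, adjusted p = 0.00644). Takeout and juvenile hormone binding proteins, a family of carriers of small lipophilic molecules, had 3 rises and 0 falls among 10 tested of 19 annotated, both with and without replicate 1. The share of rises was close to the 29.9% over all animal-hit unigenes. Takeout (13_Contig_8886) had 1.20, 1.20 and 2.86 CPM in the mature larva libraries and 9.66, 14.9 and 11.6 CPM in the imago libraries. The highest larval library was below the lowest imago library (log2 change 2.78 ± 0.56, adjusted p = 0.00256). Its subimago mean of 47.2 CPM was above both. The most abundant takeout unigene (13_Contig_8287) had 448, 588 and 4.00 CPM in the mature larva libraries and 206, 287 and 198 CPM in the imago libraries. Mature larva replicate 3 was far below the rest, and no difference was called (-0.59 ± 1.39, adjusted p = 0.746).

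Among genes of the digestive tract, the count of falls depended on replicate 1. Digestive proteases had 60 falls and 3 rises among 116 tested of 161 annotated, and 33 and 3 without replicate 1, with the median moving from -3.65 to -0.88. The falls were 51.7% of the members tested and 28.4% without replicate 1, against 28.0% and 18.0% over all animal-hit unigenes. In 25 of the 60, replicate 1 was at least 10 times above the other larvae. Gut markers, of which 100 of 115 were tested, summed to 4535, 2159 and 694 CPM in mature larvae and to 245 to 319 CPM in imagoes, and 14 of them had no read in imagoes. Chymotrypsin 5 (13_Contig_22034) had 2.07, 2.10 and 1.87 CPM in mature larvae and no read in any imago library, against 309 reads over the larvae. This was at least 101.7-fold lower, computed against 3 reads over the imago group (0.0199 CPM). Its 3 larval libraries were close together, and the log2 change was -9.45, adjusted p = 9.82e-06 without replicate 1. Aminopeptidase N (13_Contig_8294, chosen after values were seen), a peptidase of gut membranes, had 84.2, 81.9 and 81.3 CPM in the mature larva libraries and 6.81, 0.975 and 1.18 CPM in the imago libraries. Imagoes were lower throughout (log2 change -4.78 ± 0.90, adjusted p = 0.00197). Cathepsin L (13_Contig_864), a protease of lysosomes that also serves in digestion, went the other way, with 129, 108 and 137 CPM in the mature larva libraries and 274, 299.8 and 291 CPM in the imago libraries. Larvae were below in all 3 libraries, a log2 change of 1.21 ± 0.13, adjusted p = 7.35e-05. The list's most abundant unigene, aminopeptidase N-10 (13_Contig_4292), had 197, 247 and 255 CPM in the mature larva libraries and 321, 333 and 336 CPM in the imago libraries. The rise held in all 3 imago libraries (log2 change 0.50 ± 0.14, adjusted p = 0.0131). Without replicate 1 it was not called (0.36, adjusted p = 0.0635).

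Digestive carbohydrases and lipases had 20 falls and 3 rises among 34 tested of 54 annotated (8 and 1 without replicate 1). The falls were 58.8% of the members tested and 23.5% without replicate 1, against 28.0% and 18.0% over all animal-hit unigenes. Maltase 1 (13_Contig_8617), which splits maltose to glucose, had 35.4, 36.5 and 14.9 CPM in the mature larva libraries and 0.0191, 0.0636 and 0.0582 CPM in the imago libraries. No imago library reached the lowest larval one, and the log2 change was -9.20 ± 1.70, adjusted p = 0.00172. It was already at 0.115 CPM in subimagoes. Trehalase (First_Contig221), which splits the sugar of insect blood, had 48.7, 54.6 and 58.6 CPM in the mature larva libraries and 88.4, 95.8 and 95.7 CPM in the imago libraries. Levels were higher in the 3 imagoes than in any larval library (log2 change 0.79 ± 0.17, adjusted p = 0.00398). The most abundant member, beta-galactosidase (First_Contig864), had 120.3, 90.7 and 104 CPM in the mature larva libraries and 228, 224 and 218 CPM in the imago libraries. The imago libraries were the higher ones throughout (log2 change 1.09 ± 0.39, adjusted p = 0.0397). The call was lost without any 1 of the 6 libraries (adjusted p = 0.0622 to 0.0978).

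Detoxification enzymes moved in both directions, with 47 falls and 14 rises among 118 tested of 159 annotated (23 and 17 without replicate 1), and replicate 1 was at least 10 times above the others in 20 of the falls. The falls were 39.8% of the members tested, against 28.0% over all animal-hit unigenes. Without replicate 1 they were 19.5%, near the 18.0% over all, and the rises were 14.4% against 23.4%. A sigma glutathione S-transferase (13_Contig_8778), which conjugates glutathione to reactive molecules, fell from 5587 reads to 3, a ratio of 1839 with a 95% interval of 629 to 8921. Its mature larva levels of 64.7, 9.00 and 2.46 CPM were uneven but all above the imagoes at 0.0191, 0 and 0.0388 CPM. A cytochrome P450 (13_Contig_11610), an oxidase of the family that handles foreign and endogenous compounds, had 0.77, 0.9 and 0.756 CPM in the mature larva libraries and 13.6, 14.2 and 13.4 CPM in the imago libraries. A gap separated the stages, imagoes higher (log2 change 4.08 ± 0.26, adjusted p = 3.12e-06). The subimago mean of 0.983 CPM was close to the larval libraries. The most abundant P450 (13_Contig_2478) had 109, 145 and 206 CPM in the mature larva libraries and 366, 322 and 324 CPM in the imago libraries. The imagoes formed the higher range (log2 change 1.14 ± 0.20, adjusted p = 0.00119).

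Immune genes had 25 falls and 4 rises among 62 tested of 77 annotated (17 and 6 without replicate 1). Of those tested, 40.3% fell (27.4% without replicate 1), against 28.0% (18.0%) over all animal-hit unigenes. A unigene annotated as Toll (13_Contig_12415), a receptor of immune and developmental signalling in Drosophila, had 32.0, 19.9 and 10.6 CPM in the mature larva libraries and 0.708, 0.615 and 0.621 CPM in the imago libraries. It fell without overlap between stages (log2 change -5.00 ± 0.47, adjusted p = 3.25e-05). The member highest in CPM, Toll-7-like (13_Contig_1055), rose instead, with 59.5, 79.9 and 83.3 CPM in the mature larva libraries and 135, 121 and 146 CPM in the imago libraries. Mature larvae were lower in every library (log2 change 0.86 ± 0.17, adjusted p = 0.00279).

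The list of haemocyanin, hexamerin and lipid carriers, proteins of the blood and fat body, also held ferritins and transferrins, which bind iron. It had 10 falls and 4 rises among 21 tested of 29 annotated (5 and 5 without replicate 1). All 4 rises were annotated as ferritins or a melanotransferrin. The share of falls was 47.6%, against 28.0% over all animal-hit unigenes. Without replicate 1, falls and rises were each 23.8%, against 18.0% and 23.4% over all. Fat body markers, 5 of 7 tested, summed to 4728, 755 and 501 CPM in mature larvae and 970 to 1086 CPM in imagoes. Hexamerin 1 (13_Contig_210), a storage protein, had 3688, 366 and 108 CPM in the mature larva libraries and 155, 247 and 162 CPM in the imago libraries. The stages overlapped, the log2 change was -2.88 ± 0.94, adjusted p = 0.028, and it was -0.38, adjusted p = 0.596 without replicate 1. It was no longer called without mature larva replicate 1 or imago replicate 1, 2 or 3 (adjusted p = 0.06 to 0.596). The young larva mean was 12990 CPM. Apolipoprotein D (13_Contig_20124), a carrier of small lipids, had 55.7, 62.1 and 10.3 CPM in the mature larva libraries and 0.115, 0.212 and 0.427 CPM in the imago libraries. The lowest larval library was above the highest imago library (log2 change -7.39 ± 1.20, adjusted p = 0.000876). Soma ferritin (13_Contig_736), which stores iron, had 54.8, 16.6 and 16.7 CPM in the mature larva libraries and 435, 324 and 372 CPM in the imago libraries. Without overlap, imagoes were higher (log2 change 3.68 ± 0.56, adjusted p = 0.000612). The change was 4.46, adjusted p = 0.000112 without replicate 1. Another unigene annotated as ferritin (First_Contig900, chosen after values were seen) fell. It had 91.7, 18.3 and 5.27 CPM in the mature larva libraries and 1.01, 0.679 and 0.544 CPM in the imago libraries. Its log2 change was -5.68 ± 1.00, adjusted p = 0.00137, and -4.01, adjusted p = 0.00136 without replicate 1. The 32 kDa apolipoprotein (13_Contig_13431), which is outside the list, had 992, 1138 and 222 CPM in the mature larva libraries and 0.306, 0.467 and 0.544 CPM in the imago libraries. Each imago library was under each larval library, a log2 change of -10.80 ± 1.86, adjusted p = 0.00121.

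Cytosolic ribosomal proteins, the protein part of the machinery that makes all proteins, had 87 falls and 2 rises among 115 tested of 234 annotated. Without replicate 1 there were 68 falls and 0 rises, and all 68 were also among the 87. The 87 falls were 75.7% of the members tested (59.1% fell without replicate 1), against 28.0% (18.0%) over all animal-hit unigenes. In 20 of the 87, replicate 1 was at least 10 times above both other larval libraries. Every imago library was below every mature larva library in 82 of the 115 members, against 3311 of the 13442 animal-hit unigenes tested. Set against replicates 2 and 3 alone the members were also 82. Fewer larval libraries make this easier to meet, and no count over all unigenes was made to set beside it. The summed level was 12710, 12170 and 10360 CPM in mature larvae, 4940 to 5225 CPM in subimagoes and 2947 to 3061 CPM in imagoes, so the subimago lay between the stages. Ribosomal protein L5 (13_Contig_5366) had 273, 273 and 287 CPM in the mature larva libraries and 17.5, 19.1 and 19.6 CPM in the imago libraries. The fall held in all 3 imago libraries (log2 change -3.89 ± 0.18, adjusted p = 1.09e-06). The most abundant, L15 (13_Contig_773), had 1401, 3355 and 1924 CPM in the mature larva libraries and 354, 313 and 333 CPM in the imago libraries. Levels were lower in the 3 imagoes than in any larval library (log2 change -2.74 ± 0.37, adjusted p = 0.000329). The extent with all libraries varied among members called both ways, from -9.37 to -0.43. The steepest of these falls, given again among the largest falls below, rested mainly on replicate 1. L19 (13_Contig_3580) was 1 of the 2 rises, with 16.6, 16.7 and 21.2 CPM in the mature larva libraries and 27.1, 23.9 and 23.0 CPM in the imago libraries. In the imago, all libraries lay above the larval ones (log2 change 0.44 ± 0.13, adjusted p = 0.0167). The threshold was missed without mature larva replicate 1 or 2 or imago replicate 1 (adjusted p = 0.0581 to 0.0995).

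Oxidative phosphorylation, the respiratory chain and ATP synthase of mitochondria, had 39 falls and 1 rise among 72 tested of 127 annotated (31 and 3 without replicate 1). In percent of those tested, 54.2 fell (43.1 without replicate 1), against 28.0 (18.0) over all animal-hit unigenes. With library totals alone, 29 fell and 6 rose, against 2461 and 5081 of 13442 over all animal-hit unigenes. Of the 39 falls, 7 had no read in imagoes. Among these 7 were 6 of mitochondrially encoded subunits, at most 4.17 CPM in a mature larva library, that also had no read in young larvae and subimagoes. Of the 6, 4 had best hits to animals other than arthropods and 2 to other insects, and whether they are mayfly sequences was not tested. The summed level was 19250, 30620 and 23110 CPM in mature larvae, 11630 to 16840 CPM in subimagoes and 5179 to 5733 CPM in imagoes. Cytochrome c oxidase subunit 1 (Second_Contig6), encoded in the mitochondrial genome of animals, was the most abundant in CPM and had 13200, 22000 and 16480 CPM in the mature larva libraries and 3132, 2744 and 2854 CPM in the imago libraries. The larval libraries were the higher ones throughout (log2 change -2.57 ± 0.23, adjusted p = 2.86e-05). Cytochrome b (First_Contig532), also encoded there but outside the list, had 12610, 31990 and 19590 CPM in the mature larva libraries and 3029, 3038 and 2854 CPM in the imago libraries. Larval and imago ranges were apart, imagoes lower (log2 change -2.85 ± 0.35, adjusted p = 0.000225). NADH dehydrogenase chain 2 (13_Contig_1373), encoded there too, had 276, 421 and 339 CPM in the mature larva libraries and 34.5, 37.9 and 32.6 CPM in the imago libraries. The imagoes formed the lower range (log2 change -3.30 ± 0.24, adjusted p = 5.14e-06). Among nuclear-encoded members chosen after values were seen, an ATP synthase subunit beta (13_Contig_2651) had 634, 1321 and 702 CPM in the mature larva libraries and 73.9, 72.9 and 84.7 CPM in the imago libraries. Mature larvae were higher in every library (log2 change -3.52 ± 0.43, adjusted p = 0.000229). Subunit alpha (13_Contig_574) had 457, 705 and 454 CPM in the mature larva libraries and 335, 315 and 333 CPM in the imago libraries. Without overlap, imagoes were lower (log2 change -0.72 ± 0.21, adjusted p = 0.0181). The test no longer passed without mature larva replicate 2 or imago replicate 2 (adjusted p = 0.0564 to 0.075). The 75 kDa subunit of complex I (13_Contig_1331) had 78.9, 93.6 and 82.4 CPM in the mature larva libraries and 108, 92.2 and 99.6 CPM in the imago libraries. Its stages overlapped, and it was not called (0.23 ± 0.14, adjusted p = 0.168). The 1 rise was another unigene annotated as ATP synthase subunit beta (13_Contig_19365), with 0.0621, 0 and 0 CPM in the mature larva libraries and 0.459, 0.212 and 0.349 CPM in the imago libraries. There was no overlap, with imagoes higher by a log2 change of 3.51 ± 0.91, adjusted p = 0.0125. The change was 6.88, adjusted p = 0.0043 without replicate 1.

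Glycolysis and the tricarboxylic acid cycle had 27 falls and 7 rises among 52 tested of 92 annotated (17 and 6 without replicate 1). With library totals alone there were 15 falls among the 52, against 2461 of 13442 over all animal-hit unigenes. Lower members made up 51.9% (32.7% without replicate 1), against 28.0% (18.0%) over all animal-hit unigenes. Citrate synthase (13_Contig_781), the entry enzyme of the cycle, had 361, 843 and 471 CPM in the mature larva libraries and 106, 109 and 104 CPM in the imago libraries. All imago libraries lay below the larval ones (log2 change -2.39 ± 0.32, adjusted p = 0.000328). The pyruvate dehydrogenase E1 alpha subunit (13_Contig_1426), which feeds the cycle from glycolysis, had 71.1, 68.8 and 56.2 CPM in the mature larva libraries and 27.0, 24.6 and 26.2 CPM in the imago libraries. The stages did not overlap, with imagoes lower by a log2 change of -1.34 ± 0.14, adjusted p = 6.75e-05. Phosphoglycerate kinase (13_Contig_1917), an ATP-yielding step of glycolysis, rose, with 38.9, 37.3 and 31.8 CPM in the mature larva libraries and 208, 197 and 201 CPM in the imago libraries. The imago values were all higher than the larval ones, with a log2 change of 2.49 ± 0.27, adjusted p = 0.00011.

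Fatty acid synthesis and oxidation had 18 falls and 9 rises among 66 tested of 91 annotated (9 and 8 without replicate 1). The falls were 27.3% of the members tested, near the 28.0% over all animal-hit unigenes, and the median of -0.20 turned to 0.15 with library totals alone. A fatty acyl-CoA reductase (13_Contig_6103), an enzyme that makes fatty alcohols for waxes and other lipids, had 46.5, 62.8 and 53.1 CPM in the mature larva libraries and 7.50, 6.53 and 5.05 CPM in the imago libraries. Every imago value was lower than any larval value, with a log2 change of -3.09 ± 0.23, adjusted p = 7.37e-06. An elongase of very long chain fatty acids (13_Contig_11268) had 9.47, 10.3 and 4.92 CPM in the mature larva libraries and 35.4, 37.1 and 35.1 CPM in the imago libraries. Imagoes were higher throughout (log2 change 2.12 ± 0.26, adjusted p = 0.000204). The list's most abundant unigene, very long-chain acyl-CoA dehydrogenase (13_Contig_274), which starts the oxidation of such acids in mitochondria, had 391, 449 and 475 CPM in the mature larva libraries and 405, 449 and 463 CPM in the imago libraries. Its stages overlapped, and the log2 change was 0.00 ± 0.18, adjusted p = 0.995.

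Muscle structure genes had 26 falls and 4 rises among 58 tested of 94 annotated (17 and 8 without replicate 1). With library totals alone there were 16 falls among the 58, against 2461 of 13442 over all animal-hit unigenes. As a share, 44.8% fell (29.3% without replicate 1), against 28.0% (18.0%) over all animal-hit unigenes. Muscle markers, 28 of 36 tested, summed to 8350, 3658 and 3047 CPM in mature larvae and to 1351 to 1549 CPM in imagoes. Muscle myosin heavy chain (Second_Contig9), the motor of the thick filament, had 4109, 1404 and 748 CPM in the mature larva libraries and 147, 148 and 131 CPM in the imago libraries. Imagoes were lower throughout (log2 change -3.88 ± 0.65, adjusted p = 0.00106). The change was -2.96, adjusted p = 0.00122 without replicate 1. Its subimago mean was 145 CPM, so the low level was already present there. The M-line protein unc-89 (13_Contig_1640), which anchors thick filaments, had 450.4, 502 and 255 CPM in the mature larva libraries and 47.5, 60.3 and 53.6 CPM in the imago libraries. No imago library reached the lowest larval one, and the log2 change was -2.90 ± 0.33, adjusted p = 0.000137. Flightin (13_Contig_7530, chosen after values were seen), a thick filament protein of insect flight muscle, had 410.1, 241 and 142 CPM in the mature larva libraries and 22.0, 24.0 and 33.3 CPM in the imago libraries. It fell without overlap between stages (log2 change -3.32 ± 0.56, adjusted p = 0.00103). A unigene annotated as myosin-2 heavy chain (13_Contig_128) had the smallest p among rises, with 107, 149 and 165 CPM in the mature larva libraries and 220.2, 250.4 and 181 CPM in the imago libraries. No larval library reached the lowest imago one, and the log2 change was 0.63 ± 0.16, adjusted p = 0.00908.

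Ion transport and osmoregulation genes, which hold blood salts in fresh water, had 29 falls and 9 rises among 71 tested of 96 annotated. Without replicate 1 there were 19 falls and 8 rises. With library totals alone there were 16 falls among the 71, against 2461 of 13442 over all animal-hit unigenes. Of the members tested, 40.8% fell (26.8% without replicate 1), against 28.0% (18.0%) over all animal-hit unigenes. The Na+/K+ ATPase alpha subunit (13_Contig_504), the pump that drives salt uptake across gills and gut, was the most abundant, with 1124, 1675 and 1655 CPM in the mature larva libraries and 383, 377 and 333 CPM in the imago libraries. The lowest larval library was above the highest imago library (log2 change -2.03 ± 0.16, adjusted p = 1.03e-05). A second unigene with this annotation (13_Contig_18657) had 13.3, 17.7 and 15.7 CPM in the mature larva libraries and 3.06, 3.46 and 3.16 CPM in the imago libraries. Each imago library was under each larval library, a log2 change of -2.27 ± 0.17, adjusted p = 7.37e-06. V-type proton ATPase subunit S1 (13_Contig_798), an accessory part of the proton pump, rose, with 41.5, 50.2 and 54.6 CPM in the mature larva libraries and 96.5, 93.7 and 101 CPM in the imago libraries. It rose without overlap between stages (log2 change 0.99 ± 0.14, adjusted p = 0.000488).

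Photoreception genes had 11 falls and 3 rises among 21 tested of 22 annotated (11 and 1 without replicate 1). The falls were 52.4% of the members tested, against 28.0% over all animal-hit unigenes. Eye markers, 18 of 19 tested, summed to 1806, 2314 and 3125 CPM in mature larvae and to 387 to 459 CPM in imagoes. The most abundant member, an arrestin (13_Contig_124), which shuts off light-activated opsin, had 1712, 3225 and 3259 CPM in the mature larva libraries and 243, 343 and 304 CPM in the imago libraries. The fall held in all 3 imago libraries (log2 change -3.20 ± 0.36, adjusted p = 0.000121). A chaoptin-like protein (13_Contig_8491), named after an adhesion protein of fly photoreceptors, had 104, 309 and 199 CPM in the mature larva libraries and 8.21, 8.50 and 6.43 CPM in the imago libraries. Levels were lower in the 3 imagoes than in any larval library (log2 change -4.73 ± 0.38, adjusted p = 1.14e-05). The unigene of the blue-sensitive visual pigment (13_Contig_194), an opsin that the list's words did not catch, had 3311, 8167 and 6993 CPM in the mature larva libraries and 76.5, 300.0 and 115 CPM in the imago libraries. Its log2 change was -5.23 ± 1.23, adjusted p = 0.00644, its subimago mean was 751 CPM and its young larva mean 3.14 CPM, so mature larvae were its highest stage. Rhodopsin (13_Contig_1132, chosen after values were seen) had 894, 963 and 1635 CPM in the mature larva libraries and 185, 219 and 220.1 CPM in the imago libraries. The larval libraries were the higher ones throughout (log2 change -2.48 ± 0.35, adjusted p = 0.000409). Phosrestin-2 (13_Contig_12239), another arrestin by name, had 2.57, 2.50 and 2.86 CPM in the mature larva libraries and 4.72, 8.29 and 5.71 CPM in the imago libraries. The highest larval library was below the lowest imago library (log2 change 1.24 ± 0.22, adjusted p = 0.00132).

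Chemoreception genes had 4 falls and 2 rises among 29 tested of 52 annotated (4 and 1 without replicate 1). These shares, 13.8% and 6.9%, were below the 28.0% and 29.9% over all animal-hit unigenes. The list had a median of 0.06 whose sign depended on scaling and filter. Odorant-binding protein 56h (13_Contig_21673), a small carrier of odorants, had 5.97, 0.567 and 0.213 CPM in the mature larva libraries and 16.3, 10.7 and 15.0 CPM in the imago libraries. Every imago library was above every larval one, with a log2 change of 2.62 ± 0.88, adjusted p = 0.0321, and of 5.16, adjusted p = 4.97e-05 without mature larva replicate 1. The call was lost without mature larva replicate 2 or imago replicate 1, 2 or 3 (adjusted p = 0.0504 to 0.077). The other rise was gustatory receptor trehalose 1 (13_Contig_5409), with a log2 change of 0.68 ± 0.20, adjusted p = 0.0165. Without mature larva replicate 1 it was not called (0.50, adjusted p = 0.069). Odorant-binding protein 25 (13_Contig_28952) had 42 reads over the larvae and none in imagoes, at least 13.8-fold lower. The member highest in CPM, a chemosensory-binding protein (13_Contig_7993), had 510.4, 436 and 324 CPM in the mature larva libraries and 211, 339 and 284 CPM in the imago libraries. The stages overlapped and were not called different (-0.61 ± 0.88, adjusted p = 0.589), while the subimago mean was 2.80 CPM.

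Neuronal signalling and synapse genes had 47 falls and 16 rises among 107 tested of 118 annotated (39 and 10 without replicate 1). With library totals alone there were 22 falls among the 107, against 2461 of 13442 over all animal-hit unigenes. The share lower was 43.9% (36.4% without replicate 1), against 28.0% (18.0%) over all animal-hit unigenes. Nervous system markers, all 17 tested, summed to 470, 633 and 630 CPM in mature larvae and to 577 to 604 CPM in imagoes, so their sum overlapped between stages. A subunit beta-2 of a voltage-gated potassium channel (13_Contig_14739) had 10.1, 14.4 and 11.4 CPM in the mature larva libraries and 2.74, 2.12 and 1.90 CPM in the imago libraries. Larval and imago ranges were apart, imagoes lower (log2 change -2.41 ± 0.22, adjusted p = 3.23e-05). Synaptotagmin 1 (13_Contig_3859, chosen after values were seen), the calcium sensor of transmitter release, had 81.6, 139.5 and 97.0 CPM in the mature larva libraries and 43.6, 45.6 and 36.0 CPM in the imago libraries. The imagoes formed the lower range (log2 change -1.35 ± 0.19, adjusted p = 0.00042). The vesicular amine transporter (13_Contig_5311), which loads monoamines such as dopamine and octopamine into vesicles, rose and was the most abundant, with 146, 186 and 199 CPM in the mature larva libraries and 339.9, 349.5 and 346 CPM in the imago libraries. Larvae were below in all 3 libraries, a log2 change of 0.96 ± 0.14, adjusted p = 0.000404. An octopamine receptor (13_Contig_2269, chosen after values were seen) had 13.0, 18.6 and 25.9 CPM in the mature larva libraries and 53.6, 61.4 and 55.1 CPM in the imago libraries. The rise held in all 3 imago libraries (log2 change 1.57 ± 0.27, adjusted p = 0.00104).

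Genes of the egg and germ line moved in both directions. The list of egg yolk, eggshell and oogenesis had 12 rises and 8 falls among 29 tested of 37 annotated (11 and 5 without replicate 1). The rises were 41.4% of the members tested, against 29.9% over all animal-hit unigenes, and the falls 27.6%, near the 28.0% over all. The list had a summed level of 1906, 2427 and 3065 CPM in mature larvae and 4972 to 5392 CPM in imagoes. Germline and ovary markers, 13 of 18 tested and in part the same unigenes, summed to 753, 1196 and 1448 CPM in mature larvae. In imagoes they summed to 3491 to 3757 CPM. The most abundant unigene in both sums was bicaudal C, so they are not separate measures, and a large part of each rise was its own. The list's most abundant unigene, bicaudal C (13_Contig_854), which binds RNA during Drosophila oogenesis, had 310.5, 579.5 and 694 CPM in the mature larva libraries and 2206, 2099 and 2316 CPM in the imago libraries. Levels were higher in the 3 imagoes than in any larval library (log2 change 2.06 ± 0.32, adjusted p = 0.000694). Its young larva mean was 0.501 CPM, so it was near 0 before the mature larva. Tudor domain-containing protein 3 (13_Contig_5599) had 38.4, 46.7 and 54.3 CPM in the mature larva libraries and 97.0, 95.5 and 102 CPM in the imago libraries. The imago libraries were the higher ones throughout (log2 change 1.08 ± 0.17, adjusted p = 0.000649). Members chosen after values were seen included a piwi-like protein (13_Contig_6111), which silences transposons in the germ line, with 32.9, 52.4 and 88.1 CPM in the mature larva libraries and 159, 157 and 171 CPM in the imago libraries. A gap separated the stages, imagoes higher (log2 change 1.49 ± 0.32, adjusted p = 0.00382). Other unigenes annotated as piwi also rose or were not called, but 13_Contig_22908 fell. Its log2 change was -2.83 ± 0.80, adjusted p = 0.0149, and -0.95, adjusted p = 0.135 without replicate 1. Of 3 unigenes annotated as vitellogenin receptor, through which the oocyte takes up yolk, 1 rose, 1 fell and 1 was not called. The rising one (13_Contig_5313) had 37.2, 56.1 and 39.5 CPM in the mature larva libraries and 126, 127 and 136 CPM in the imago libraries. The imagoes formed the higher range (log2 change 1.55 ± 0.28, adjusted p = 0.00199). The one highest in CPM (13_Contig_598) had 110.2, 131 and 124 CPM in the mature larva libraries and 188, 192 and 191 CPM in the imago libraries. Its stages did not overlap, but no difference was called (0.65 ± 0.33, adjusted p = 0.124). The falling one (13_Contig_52163) was low in all libraries, with 0.646, 0.267 and 0.307 CPM in the mature larva libraries and 0.134, 0.148 and 0.0776 CPM in the imago libraries. Mature larvae were higher in every library (log2 change -1.77 ± 0.46, adjusted p = 0.01). Without replicate 1 it was not called (-1.28, adjusted p = 0.0553).

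The yolk precursor was not called, and the 3 chorion peroxidases did not share a direction. Vitellogenin (13_Contig_814, chosen after values were seen), the yolk precursor, had 171, 123 and 297 CPM in the mature larva libraries and 401, 229.8 and 342 CPM in the imago libraries. Its stages overlapped, with a log2 change of 0.72 ± 0.34, adjusted p = 0.0979, and no difference was called. A chorion peroxidase (13_Contig_8552, chosen after values were seen, like the other two), an enzyme that hardens the eggshell in flies, fell, with 23.7, 18.0 and 8.79 CPM in the mature larva libraries and 1.40, 1.15 and 1.22 CPM in the imago libraries, and a subimago mean of 81.7 CPM. Without overlap, imagoes were lower (log2 change -3.74 ± 0.49, adjusted p = 0.000298). Another (13_Contig_6052) had 88.0, 100.5 and 92.9 CPM in the mature larva libraries and 50.0, 62.8 and 55.7 CPM in the imago libraries. All imago libraries lay below the larval ones (log2 change -0.74 ± 0.26, adjusted p = 0.0396). It was no longer called without any 1 of the 6 libraries (adjusted p = 0.0539 to 0.117). The remaining one (13_Contig_16163) rose, with 3.85, 8.23 and 8.87 CPM in the mature larva libraries and 18.6, 27.6 and 19.4 CPM in the imago libraries. Mature larvae were lower in every library (log2 change 1.65 ± 0.41, adjusted p = 0.00865). Tudor domain-containing protein 7 (13_Contig_5441), the fall with the smallest p, had 117, 144 and 112 CPM in the mature larva libraries and 37.4, 47.2 and 38.6 CPM in the imago libraries. The stages did not overlap, with imagoes lower by a log2 change of -1.60 ± 0.15, adjusted p = 3.86e-05.

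Sperm tail and axoneme genes had 7 falls and 2 rises among 15 tested of 37 annotated (5 and 2 without replicate 1). As a share, 46.7% fell (33.3% without replicate 1), against 28.0% (18.0%) over all animal-hit unigenes. Testis markers, 11 of 25 tested, summed to 91.1, 88.5 and 196 CPM in mature larvae and to 47.9 to 49.7 CPM in imagoes. Outer dense fiber protein 3 (13_Contig_6302), a protein of the sperm tail in mammals, had 58.2, 64.0 and 164 CPM in the mature larva libraries and 16.1, 24.5 and 19.1 CPM in the imago libraries. Every imago value was lower than any larval value, with a log2 change of -2.26 ± 0.39, adjusted p = 0.00114. The most abundant member, sperm-tail PG-rich repeat protein (13_Contig_1196), had 53.5, 39.6 and 64.5 CPM in the mature larva libraries and 103, 101 and 105 CPM in the imago libraries, and no read in young larvae. Without overlap, imagoes were higher (log2 change 0.97 ± 0.26, adjusted p = 0.0149). The axonemal dynein heavy chain 10 (13_Contig_19947), a motor of the beating tail or cilium, had 3.07, 3.67 and 4.11 CPM in the mature larva libraries and 16.9, 8.06 and 10.0 CPM in the imago libraries. In the imago, all libraries lay above the larval ones (log2 change 1.69 ± 0.39, adjusted p = 0.00591). Its best hit was to an animal other than an arthropod, and whether it is a mayfly sequence was not tested. A unigene annotated as the same chain with an arthropod hit (13_Contig_40855) was not called (-0.36 ± 1.27, adjusted p = 0.831).

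DNA replication and cell division genes had 45 rises and 18 falls among 77 tested of 93 annotated, 58.4% rises against 29.9% over all animal-hit unigenes. Without replicate 1 there were 35 rises and 4 falls, and in 15 of the 18 falls replicate 1 was at least 10 times above the other larvae. The member highest in CPM, the phosphatase CDC25 (13_Contig_314), which starts mitosis by activating a cyclin-dependent kinase, had 125, 171 and 194 CPM in the mature larva libraries and 449, 416 and 435 CPM in the imago libraries. There was no overlap, with imagoes higher by a log2 change of 1.41 ± 0.19, adjusted p = 0.000356. Ribonucleotide reductase, which makes the building blocks of DNA, rose in a pair of unigenes. The first (13_Contig_8070) had 20.4, 23.4 and 38.7 CPM in the mature larva libraries and 102, 96.4 and 95.8 CPM in the imago libraries. The imago values were all higher than the larval ones, with a log2 change of 1.84 ± 0.23, adjusted p = 0.000211. The other (13_Contig_2674) had 3.56, 4.77 and 7.21 CPM in the mature larva libraries and 35.7, 31.1 and 32.0 CPM in the imago libraries. Imagoes were higher throughout (log2 change 2.67 ± 0.41, adjusted p = 0.00059). Part of this list is also active in ovaries, whose marker sum, with bicaudal C as its most abundant unigene, was higher in imagoes. The part of ovaries in these rises was not tested.

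Heat shock proteins and chaperones, which fold other proteins, had 37 rises and 13 falls among 70 tested of 98 annotated (34 and 5 without replicate 1). Higher members made up 52.9% (48.6% without replicate 1), against 29.9% (23.4%) over all animal-hit unigenes. The list's summed level was 4381, 4530 and 5721 CPM in mature larvae and 9051 to 9445 CPM in imagoes. HSP70-p1 (13_Contig_219), the most abundant, had 356, 327 and 668 CPM in the mature larva libraries and 1129, 1012 and 1140 CPM in the imago libraries. No larval library reached the lowest imago one, and the log2 change was 1.28 ± 0.22, adjusted p = 0.0012. A 21.4 kDa heat shock protein (13_Contig_1332) had 88.9, 154 and 201 CPM in the mature larva libraries and 612, 634 and 646 CPM in the imago libraries. It rose without overlap between stages (log2 change 2.09 ± 0.23, adjusted p = 0.00012). HSP90 (13_Contig_1731, chosen after values were seen) had 181, 208 and 428 CPM in the mature larva libraries and 857, 821 and 834 CPM in the imago libraries. The highest larval library was below the lowest imago library (log2 change 1.62 ± 0.26, adjusted p = 0.000819). Their subimago means of 989, 282 and 699 CPM lay between the stage means. The chaperonin subunit TCP1 epsilon (13_Contig_830), which helps fold actin and tubulin, fell, with 185, 179 and 201 CPM in the mature larva libraries and 92.7, 112 and 115 CPM in the imago libraries. Imagoes were lower throughout (log2 change -0.82 ± 0.10, adjusted p = 0.000237).

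Proteasome genes, which degrade tagged proteins, had 20 rises and 7 falls among 37 tested of 51 annotated. Without replicate 1 there were 14 rises and 1 fall. With TMM computed on animal-hit unigenes there were 13 rises among the 37, against 3470 of 13442 over all animal-hit unigenes. The share higher was 54.1% (37.8% without replicate 1), against 29.9% (23.4%) over all animal-hit unigenes. Proteasome activator subunit 3 (13_Contig_6035) had 64.1, 63.2 and 81.0 CPM in the mature larva libraries and 119.8, 116 and 119.7 CPM in the imago libraries. Larvae were below in all 3 libraries, a log2 change of 0.77 ± 0.12, adjusted p = 0.000527. The list's most abundant unigene, activator subunit 4 (13_Contig_1611), had 141, 186 and 206 CPM in the mature larva libraries and 247, 265 and 270.4 CPM in the imago libraries. The rise held in all 3 imago libraries (log2 change 0.56 ± 0.14, adjusted p = 0.00826). A proteasome alpha subunit (13_Contig_15220) fell, with 9.76, 11.4 and 10.5 CPM in the mature larva libraries and 4.88, 5.28 and 4.99 CPM in the imago libraries. No imago library reached the lowest larval one, and the log2 change was -1.07 ± 0.20, adjusted p = 0.0017. Its best hit, too, was to an animal other than an arthropod.

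Cell death and autophagy genes had 18 rises and 5 falls among 38 tested of 42 annotated (20 and 3 without replicate 1). Of those tested, 47.4% rose (52.6% without replicate 1), against 29.9% (23.4%) over all animal-hit unigenes. An inhibitor of apoptosis (13_Contig_13470) had 4.82, 1.53 and 2.51 CPM in the mature larva libraries and 34.1, 23.4 and 23.4 CPM in the imago libraries. Levels were higher in the 3 imagoes than in any larval library (log2 change 3.19 ± 0.77, adjusted p = 0.00731). An autophagy protein 2-like unigene (13_Contig_9041), from a family needed for the growth of autophagosomes, had 0.745, 1.17 and 1.02 CPM in the mature larva libraries and 5.01, 3.54 and 4.13 CPM in the imago libraries. The imago libraries were the higher ones throughout (log2 change 2.12 ± 0.26, adjusted p = 0.000196). The most abundant member, named as an apoptosis-stimulating protein of p53 (13_Contig_1201), had 114, 179 and 165 CPM in the mature larva libraries and 259, 252 and 238 CPM in the imago libraries. A gap separated the stages, imagoes higher (log2 change 0.71 ± 0.18, adjusted p = 0.00784). Of those chosen after values were seen, a caspase-1-like protease (13_Contig_3049) had 61.1, 70.7 and 83.9 CPM in the mature larva libraries and 128, 125 and 127 CPM in the imago libraries. The imagoes formed the higher range (log2 change 0.82 ± 0.14, adjusted p = 0.00118). Another caspase (13_Contig_10184) had 25.6, 33.0 and 40.7 CPM in the mature larva libraries and 16.1, 19.6 and 19.8 CPM in the imago libraries. It fell without overlap between stages (log2 change -0.84 ± 0.21, adjusted p = 0.00931). Caspases, the proteases that carry out apoptosis, were thus on both sides, and so were inhibitors of apoptosis. Among the inhibitors that fell was inhibitor of apoptosis 2 (13_Contig_6631, chosen after values were seen). It had 39.3, 35.5 and 37.7 CPM in the mature larva libraries and 16.4, 20.2 and 20.9 CPM in the imago libraries (log2 change -0.97 ± 0.16, adjusted p = 0.000868).

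Wing patterning and growth signalling genes had 9 rises and 2 falls among 29 tested of 36 annotated (6 and 3 without replicate 1), and the rises were 31.0% of the members tested, near the 29.9% over all animal-hit unigenes. The count of rises was 15 with library totals alone and 6 with TMM on animal-hit unigenes, so it depended on scaling. Over all animal-hit unigenes the rises were then 5081 and 3470 of 13442. A Delta-like protein (13_Contig_1199), a Notch ligand by name, had 42.8, 44.2 and 57.6 CPM in the mature larva libraries and 107, 101 and 108 CPM in the imago libraries. Mature larvae were lower in every library (log2 change 1.13 ± 0.17, adjusted p = 0.000625). Another Delta-like unigene (13_Contig_21690), lower in CPM, was the fall with the smallest p, although its stages overlapped. Its log2 change was -2.48 ± 0.71, adjusted p = 0.0159, and -2.31, adjusted p = 0.0428 without replicate 1. Its highest adjusted p over the alternatives was 0.0733. A further Delta-like unigene (13_Contig_137) was not called (0.77 ± 0.35, adjusted p = 0.0905). The member highest in CPM, Scalloped (13_Contig_1139), the DNA-binding partner of Vestigial in the Drosophila wing, had 166, 182 and 214 CPM in the mature larva libraries and 260.1, 256 and 263 CPM in the imago libraries. Without overlap, imagoes were higher (log2 change 0.47 ± 0.11, adjusted p = 0.00561). Hedgehog (13_Contig_2019, chosen after values were seen), a secreted patterning signal, had 48.8, 75.8 and 88.7 CPM in the mature larva libraries and 176, 177 and 179 CPM in the imago libraries. In the imago, all libraries lay above the larval ones (log2 change 1.32 ± 0.25, adjusted p = 0.00188).

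Among the rises kept by the naming rule, the largest was that of an ABC transporter of subfamily G (13_Contig_7106), a membrane pump family that includes lipid transporters, with 0.472, 0.7 and 0.898 CPM in the mature larva libraries and 26.3, 37.8 and 33.2 CPM in the imago libraries. There was no overlap, with imagoes higher by a log2 change of 5.55 ± 0.58, adjusted p = 7.35e-05. The fitted rise was 47.0-fold. Msta isoform A (13_Contig_10973) had 1.28, 1.87 and 0.756 CPM in the mature larva libraries and 31.6, 39.0 and 48.4 CPM in the imago libraries. The imago values were all higher than the larval ones, with a log2 change of 4.93 ± 0.41, adjusted p = 1.48e-05. Its subimago mean was 30.2 CPM, close to the imago level. Urocanate hydratase (13_Contig_1018), an enzyme of histidine breakdown, had 13.3, 3.33 and 7.80 CPM in the mature larva libraries and 41.0, 54.7 and 68.1 CPM in the imago libraries. Imagoes were higher throughout (log2 change 2.74 ± 0.62, adjusted p = 0.00494).

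The rises highest in CPM, which is not corrected for length, included the following beside bicaudal C. Glutamine synthetase (13_Contig_190), which fixes ammonia into glutamine, had 1547, 1404 and 1935 CPM in the mature larva libraries and 2566, 2613 and 2634 CPM in the imago libraries. No larval library reached the lowest imago one, and the log2 change was 0.68 ± 0.21, adjusted p = 0.0241. The threshold was missed without mature larva replicate 1 or 2 or imago replicate 1, 2 or 3 (adjusted p = 0.0562 to 0.0745). The RNA helicase me31b (13_Contig_448), which in Drosophila oocytes keeps stored messages silent, had 555, 796 and 812 CPM in the mature larva libraries and 2572, 2402 and 2473 CPM in the imago libraries. It rose without overlap between stages (log2 change 1.78 ± 0.22, adjusted p = 0.00021). Brain tumor (13_Contig_342), a repressor of translation in Drosophila, had 292, 408 and 483 CPM in the mature larva libraries and 1324, 1287 and 1377 CPM in the imago libraries. The highest larval library was below the lowest imago library (log2 change 1.75 ± 0.22, adjusted p = 0.000258). Vigilin (13_Contig_95), an RNA-binding protein with KH domains, had 817, 928 and 965 CPM in the mature larva libraries and 1644, 1645 and 1659 CPM in the imago libraries. Larvae were below in all 3 libraries, a log2 change of 0.87 ± 0.16, adjusted p = 0.00137.

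Of the 12 largest falls that the naming rule kept, 5 rested mainly on replicate 1, although each was still called without it. A glucosamine 6-phosphate synthetase (13_Contig_51272), the first step towards chitin's building block, had 61.8, 0.2 and 0.402 CPM in the mature larva libraries and 0, 0.0212 and 0 CPM in the imago libraries, with a young larva mean of 118 CPM. Its log2 change was -11.12 ± 2.56, adjusted p = 0.00569, and -5.06, adjusted p = 0.0211 without replicate 1. With 1 imago read against 4997 larval reads, its ratio was 4935 with a 95% interval of 885.3 to 195000 for counting error only. Isocitrate dehydrogenase (13_Contig_28501) of the tricarboxylic acid cycle, aquarius (13_Contig_34272) of the splicing machinery, the tubulin-modifying TTLL9 (First_Contig569) and small subunit ribosomal protein 7 (13_Contig_49953) had the same pattern. Their log2 changes of -9.76, -10.08, -9.46 and -9.37 became -4.09, -3.88, -3.07 and -3.66. Isocitrate dehydrogenase had 4694 larval and 3 imago reads, a ratio of 1545 with an interval of 528.4 to 7496. Aquarius had 5858 larval and 3 imago reads, a ratio of 1928 with an interval of 659.6 to 9354. A unigene named after foot protein 1 of mussels, an adhesive protein (13_Contig_19594), did not share the pattern to that extent, with 295, 10.3 and 65.8 CPM in the mature larva libraries and 0, 0.212 and 0.117 CPM in the imago libraries. The lowest larval library was above the highest imago library (log2 change -10.13 ± 1.69, adjusted p = 0.00103). The change was -8.47, adjusted p = 0.000968 without replicate 1.

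Among animal-hit unigenes, 21 had no read in any imago library and at least 10 reads in every mature larva library, and 1 had the reverse. That 1, annotated only as an uncharacterized protein (13_Contig_48644), had 66, 37 and 10 imago reads and was named after its values were seen. The 21 included chymotrypsin 5, given above, and 10 whose annotation gave no protein name.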

How the data were processed

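The authors' deposited table gives, per unigene and library, the counts of reads assigned to it, RPKM values (counts divided by length and by the total of the library) and the unigene length. Per the labels' protocols, libraries came from the TruSeq kit and were sequenced as 125 bp pairs (Illumina HiSeq). Reads of low quality or from ribosomal RNA were dropped, per the same protocols, before assembly with CLC Genomics Workbench and then CAP3. The submitters' processing notes name DESeq. The mapper and the counting and strand settings were not given in the sources used here. Only the deposited counts were tested. The RPKM values equal counts over length and total within a relative difference of 3.42e-07.

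Animal hits were found from the species code of the best hit, 338 of 434 codes. The quasi-likelihood test of edgeR 4.0.16 (glmQLFit, robust) with limma 3.58.1 in R 4.3.3 was fitted to all 15 libraries in 5 groups, with TMM scaling and filterByExpr. Benjamini-Hochberg adjustment ran over all 34131 tested unigenes, with calls at an adjusted p under 0.05. P-values measure the spread between libraries, each a pool of animals. The procedure was run on simulated counts in which a set of unigenes was changed in imagoes only. These counts had no outlying library and no other stage differences, so the run says nothing about replicate 1. Tables and figures used Python 3.11.15 with numpy 2.4.6, pandas 2.3.3 and matplotlib 3.10.9. Floors of 3 reads over a group and 95% intervals cover counting error only.

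The members, the gene lists (formed by words in the annotation) and the tests were chosen with earlier results of these data known. The rule for naming unigenes took the 12 largest rises and falls that were called, did not overlap between stages, had at least 10 CPM in the higher stage, kept the call without mature larva replicate 1 and carried a protein name. It added, for each list, the smallest p in each direction and the highest CPM, and the 5 most abundant rises and falls. Not every unigene that met the rule is described above. Unigenes outside the rule are said to be chosen after values were seen. Alternatives were other scalings, DESeq2 1.42.0, other filters, only the 6 libraries of the compared stages, a replicate block, and leaving out each library.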

Additional observations from a re-analysis of the deposited data

Results flagged for a closer look

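In reads outside the comparison, 3 signals differed widely between libraries of 1 stage or between the stages. Unigenes whose best hit was a protist or fungus took 2.45% of the reads of mature larva replicate 1, against 0.193% and 0.275% of replicates 2 and 3 and 0.369% to 0.488% of the imago libraries. The young larva libraries had 8.00%, 1.74% and 5.05%. A unigene of 10743 bases without a protein hit (First_Contig81) took 18.5% of the reads of imago replicate 2, against 0.00568% and 0.00205% in imago replicates 1 and 3. It took 2.93% of mature larva replicate 1 and 21.5% of subimago replicate 3, and its highest share was 34.3%, in replicate 3 of the mixture. A unigene of 342 bases without a protein hit (13_Contig_37517) took 8.14% of the reads of mature larva replicate 2, 3.37% and 6.16% of replicates 1 and 3, and 0.856% to 1.20% of the imago libraries.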

How the results depend on the processing

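The count of animal-hit unigenes called lower was 3758, but 2461 with library totals alone as scaling, 1873 with only the 6 libraries of the compared stages, and 2385 to 4042 when 1 library was left out. The count called higher was 4019 and ranged from 2797 (no low-count filter) to 5081 (library totals alone). List members called lower numbered 584, against 328 with the 6 libraries alone and 386 to 627 with 1 library left out. The chemoreception median of 0.06 was -0.18 with TMM on animal-hit unigenes, -0.59 with the stricter filter, and -0.24 to 0.62 with 1 library left out. The juvenile hormone median of -0.79 was -1.18 to 0.18 with 1 library left out, and the fatty acid median of -0.20 was 0.15 with library totals alone. The causes were not tested. DESeq2 gave 5067 higher and 3729 lower. Over the 100 unigenes of the naming rule, 1399 values under 14 alternatives gave 1335 on the same side of the threshold in the same direction, 63 calls lost, 1 gained and 0 reversed. Replicate numbers did not pair the libraries: same-numbered larval and imago libraries had deviations correlating at -0.06, 0.10 and -0.05, and only replicate 2 correlated best with its own number. With the replicate block, 3921 were called higher and 3123 lower. Depth limits what can be said of unigenes near 3 reads over a group (0.0199 CPM in imagoes, 0.0196 CPM in mature larvae).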

Other observations

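Of the 21 unigenes read in mature larvae and not in imagoes, 9 also had no read in young larvae and subimagoes. Of these 9, 6 were annotated as subunits encoded in the mitochondrial genome, namely cytochrome c oxidase subunits 1, 2 and 3 and NADH dehydrogenase chains 1, 4 and 5. Their summed reads were 277, 376 and 266 in the 3 mature larva libraries. The best hits were to acorn worms, a lancelet, a damselfly and a mole cricket, and the highest level of the 9 in a library of the mixture was 3.19 CPM. They are distinct from the abundant unigenes of cytochrome c oxidase subunit 1 and cytochrome b described above, which were read in every library. The other 3 were annotated as serpin 7, albumin and an uncharacterized protein. Their best hits were to a lancelet, the flatworm Schistosoma mansoni and the beetle Tribolium castaneum, in that order. Whether the 9 are mayfly sequences was not tested.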
